A study of Mus musculus with 6 samples.

Results

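CTBP2 occupancy was described at the 24 sites that surround Inhba, out of 62236 CTBP2 sites measured in all. The sites were taken by position alone, as those on chromosome 13 whose centre lay from 15.95 to 16.45 Mb, a window that holds the Inhba gene near 16.19 Mb on GRCm39. The locus itself was chosen by the LPS and vehicle values of this same table. Its rise with LPS is therefore given as a description by library, with no p-value for the 24 sites. How many of them a fit over the whole table called is counted beside the share of all sites called, and supports nothing here.

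The samples were bone marrow-derived macrophages, cells grown for 6 days from the marrow of male wildtype C57BL6/N mice in medium conditioned by L929 cells. Chromatin was fixed with DSG and formaldehyde and precipitated with an antibody to CTBP2. There were 3 libraries of cells given the vehicle PBS and 3 of cells given 100 ng/ml lipopolysaccharide (LPS), a component of the outer membrane of gram-negative bacteria, each for 3 h. The labels number the replicates without saying whether they came from separate animals or cultures, so the spread between them may be technical. No input or control precipitation was analysed here.

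Inhba encodes the βA subunit, which pairs with itself to form activin A, a secreted ligand of the TGF-β family. Activin binds type II receptors, which recruit type I receptors that phosphorylate SMAD2 and SMAD3; follistatin traps the ligand outside the cell, and inhibitory SMADs and ubiquitin ligases damp the signal inside it. Macrophages and other myeloid cells are known to release activin A after bacterial stimuli. CTBP2 is a co-repressor that does not itself bind a DNA motif and is brought to chromatin by sequence-specific factors.

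Every value in a library's column was a whole multiple of 1 step within 0.1 step, and with that step read as 1 read the sites held 3243258 to 4553179 reads per library, and the median site had 39 to 55. Values below are deposited values divided by the median of their library and multiplied by the mean of the 6 medians, called scaled units. In these units 1 read is worth 0.887 to 1.25. Over all sites the median of the group means was 48.3 in vehicle and 48.2 in LPS. This likeness is set by the scaling, which gives every library the same median. A change shared by most sites would not be seen in these units. A library is an average over its cells, so more bound cells and more CTBP2 per cell cannot be told apart.

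The positions of the sites and the gene starts available here, of GRCm38.p6, were on different coordinates, and an offset was measured within the table. In the stretch of chromosome 13 that holds Inhba, 13 of 26 protein-coding gene starts had a site within 500 bp after 1 common shift of 174.5 kb, against 0 with no shift. The shift was fitted to these same starts, so this count is not a check of it. Held-out starts of all chromosomes used are given with the processing below. Refined below the 250 bp step, the shift was 174.577 kb, and all distances below are from the Inhba start placed with it, and the gene runs from low to high coordinates. The sites are numbered 1 to 24 in that order. Of these, 21 lay upstream of the placed start and 3 downstream, and all were 1001 bp wide. The deposited table names Inhba for all 24. Its gene names were not used to pick sites, because they follow GRCm38 and the positions GRCm39. A site inside Zbtb46 at the measured offset, for example, is named Eef1a2 there.

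Site 22 is the one at the gene start. It spans 16186506 to 16187506, and its lower edge lies 78 bp past the placed start, which is less than that step. The 250 bases before the RefSeq start of Inhba (GRCm38.p6, chr13:16011601-16011850, plus strand) are shown because this is the promoter that borders the site with the highest vehicle mean of the 24, with 2 motif matches in capitals.

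Inhba promoter: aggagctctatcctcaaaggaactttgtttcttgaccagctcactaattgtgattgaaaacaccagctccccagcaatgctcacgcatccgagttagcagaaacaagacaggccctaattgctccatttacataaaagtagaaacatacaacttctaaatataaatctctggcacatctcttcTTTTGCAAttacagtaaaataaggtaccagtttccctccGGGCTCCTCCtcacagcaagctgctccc

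The first run of capitals starts 67 bases before the start and matches TTGCNNAA, a C/EBP-type motif, on the minus strand. Of 32851 RefSeq promoters of that length, 9.56% held a match on either strand. The other starts 28 bases before the start and matches GGG and CC with 5 free bases between them, the loosest κB-type pattern searched, which 45.8% of promoters held. The narrower κB patterns, GGGA and CC with 4 free bases between (17.6% of promoters) and GGGA and TTTCC with 1 free base between (0.356%), were not in this window. Neither were TGANTCA for AP-1 (6.75%), TGACGTCA for CRE (1.55%), GAGGAAGT for PU.1 (2.44%), a pair of GAAA with 2 free bases between for IRF (2.98%), CAGGTG for an E-box (17.2%) or TGTGGTTT for RUNX (1.49%). All were searched on both strands, and the narrower κB patterns are contained in the loosest one. A match describes letters and is not a measured binding site. The sequences of the distal sites are not shown, because no genome of their build was used here.

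In scaled units the start site 22 had 86.9, 81.6 and 55.0 across the vehicle libraries and 129, 135 and 125 across those given LPS, each listed from replicate 1 to replicate 3, as are all values below. It was the strongest of the 24 sites in vehicle and second to site 16 in LPS. The vehicle mean of 74.5 ± 17.1 (SD, n = 3) stood at the 72.0th percentile of all sites, and the LPS mean of 130 ± 5.04 (SD, n = 3) at the 92.0th. The log2 fold was 0.82 (SE 0.16). Its LPS and vehicle values did not overlap, and the fold was among the 6 smallest of the locus.

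The other sites within 10 kb of the start were weaker. Sites 20 and 21 lay 5.30 and 3.93 kb upstream of it, and site 23 lay 5.95 kb downstream. Site 20 had 35.7, 31.9 and 23.8 in vehicle and 67.0, 55.9 and 47.8 in LPS. Site 21 had 19.0, 13.3 and 25.0 in vehicle and 47.7, 43.5 and 43.2 in LPS. Site 23 had 28.6, 28.4 and 22.5 in vehicle and 42.0, 49.7 and 44.1 in LPS. In scaled units LPS lay above vehicle without overlap at each of these 3 sites, as at 21.6% of all sites. On the deposited values the groups overlapped at sites 21 and 23. The log2 folds of sites 20, 21 and 23 were 0.89, 1.23 and 0.76. At the offset, all 4 sites near the start fall inside the RefSeq extent of Inhba (GRCm38.p6, 16004256 to 16031609), which starts upstream of the promoter above. Exons and introns were not resolved here.

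**Figure D1:**
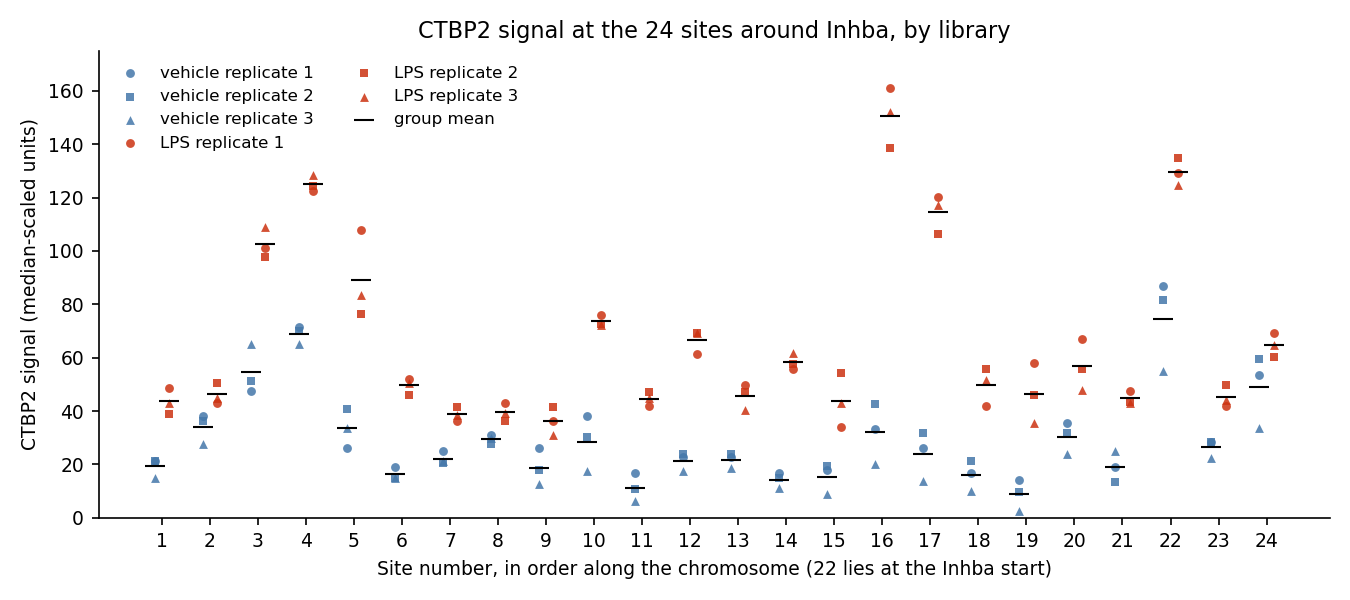
CTBP2 signal in scaled units (vertical axis) at each of the 24 sites in order along the chromosome (horizontal axis), with 1 point per library, vehicle in blue and LPS in red, and black bars for the group means. At every site the 3 LPS points lie above the 3 vehicle points, and sites 16, 22, 4 and 17 have the highest LPS means, from 115 to 151.

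The highest LPS signal of the locus lay far from the gene start. Site 16, at 16104208 to 16105208 and 81.7 kb upstream, had 33.3, 42.6 and 20.0 in vehicle and 161, 138 and 152 in LPS. The vehicle mean was 32.0 ± 11.3 and the LPS mean 151 ± 11.4 (SD over n = 3 libraries), which moved the site from the 22.4th to the 95th percentile of all sites. The log2 fold was 2.26 (SE 0.20). The reads behind these values were 28, 48 and 16 in vehicle and 142, 156 and 162 in LPS. The lowest LPS library stood above 3 times the highest vehicle library at this site.

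Site 17, at 16110491 to 16111491 and 75.4 kb upstream, had nearly the same log2 fold. Its values were 26.2, 31.9 and 13.8 in vehicle and 120, 106 and 117 in LPS, a log2 fold of 2.29 (SE 0.22). Together sites 16 and 17 made up 22.8% of the summed rise of the 24 sites. RefSeq places the start of Gm31450, a long non-coding RNA gene on the plus strand, 80.2 kb upstream of that of Inhba, which is between these 2 sites. Site 16 lay 1.55 kb from it, and site 17 fell inside the gene. B230303A05Rik, annotated as a transcribed pseudogene, spans 22 of the 24 sites, from site 2 to site 23, and its strand is not given in the gene table.

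A further pair of sites in this upstream stretch were weak in vehicle. Site 14, 89.9 kb upstream, had 16.7, 15.1 and 11.3 in vehicle and 55.6, 57.7 and 61.9 in LPS, a log2 fold of 1.97 (SE 0.25). Site 15, 85.4 kb upstream, had 17.8, 19.5 and 8.76 in vehicle and 34.0, 54.1 and 43.2 in LPS, a log2 fold of 1.50 (SE 0.30). Summed over sites 14 to 17, the signal was 85.6 ± 28.6 in vehicle and 367 ± 9.43 in LPS (SD over n = 3 libraries), a ratio of 4.29. The same ratio was 1.84 for the 4 sites within 10 kb of the start, from 151 ± 22.3 to 277 ± 14.5 (SD over n = 3 libraries). It was 3.88 for the 2 sites 24.2 to 25.5 kb upstream and 2.10 for the 12 sites 101 to 166 kb upstream. Those 12 made up 43.3% of the summed rise. A weak vehicle signal raises such a ratio as its denominator.

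Between this stretch and the gene lay sites 18 and 19, 25.5 and 24.2 kb upstream. Site 19, at 16161749 to 16162749, had the largest log2 fold of the locus and the least signal before LPS. Its values were 14.3, 9.76 and 2.5 in vehicle, at 12, 11 and 2 reads, and 57.9, 46.1 and 35.7 in LPS, at 51, 52 and 38 reads. The vehicle mean of 8.84 ± 5.94 (SD, n = 3) stood at the 0.0201th percentile of all sites and the LPS mean of 46.5 ± 11.1 (SD, n = 3) at the 47.8th. The log2 fold of 2.49 had the widest error of the locus (SE 0.44), and it was 1.86 without vehicle replicate 3, which has only 2 reads here; the log2 fold of site 16 was then 1.97. Site 18 had 16.7, 21.3 and 10.0 in vehicle and 42.0, 55.9 and 51.6 in LPS, a log2 fold of 1.63 (SE 0.27).

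The largest group lay 101 to 166 kb upstream and held 12 sites, of very unequal height. Its strongest members were sites 3 to 5, which lay 159 to 164 kb upstream. Site 4, at 16024706 to 16025706, had 71.4, 70.1 and 65.0 in vehicle and 123, 124 and 129 in LPS. This was the second highest vehicle mean of the locus, 68.8 ± 3.35 (SD, n = 3), with a log2 fold of 0.85 (SE 0.15). Site 3 had 47.6, 51.4 and 65.0 in vehicle and 101, 97.6 and 109 in LPS, a log2 fold of 0.90 (SE 0.17). Site 5 had 26.2, 40.8 and 33.8 in vehicle and 108, 76.3 and 83.5 in LPS, a log2 fold of 1.39 (SE 0.19). In scaled units LPS lay above vehicle without overlap at each of the 3, as at 21.6% of all sites. On the deposited values the groups overlapped at sites 3 and 4.

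Site 11, 116 kb upstream, was one of the nearly empty sites of vehicle cells. It had 16.7, 10.6 and 6.25 in vehicle, at 14, 12 and 5 reads, and 42.0, 47.0 and 45.0 in LPS, at 37, 53 and 48 reads. The log2 fold was 2.00 (SE 0.34). Site 2, 166 kb upstream, had 38.1, 36.4 and 27.5 in vehicle and 43.1, 50.6 and 45.0 in LPS, and its log2 fold of 0.44 (SE 0.20) was among the 3 smallest. Site 8 had the smallest, 0.41 (SE 0.21), with means of 29.5 ± 1.78 in vehicle and 39.6 ± 3.38 in LPS (SD over n = 3 libraries).

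On the far side of the gene there was no site between site 23 and site 24, a gap of 244 kb. Site 24, 250 kb downstream of the start at 16435504 to 16436504, had 53.6, 59.4 and 33.8 in vehicle and 69.2, 60.3 and 64.7 in LPS. Its lowest LPS value was thus 60.3 against a highest vehicle value of 59.4, and the log2 fold was 0.43 (SE 0.19). The 12 sites outside the rule for named sites (1, 6 to 10, 12, 13, 15, 20, 21 and 23) had vehicle means of 15.4 to 30.5, LPS means of 36.3 to 73.7 and log2 folds of 0.41 to 1.61.

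**Figure D2:**
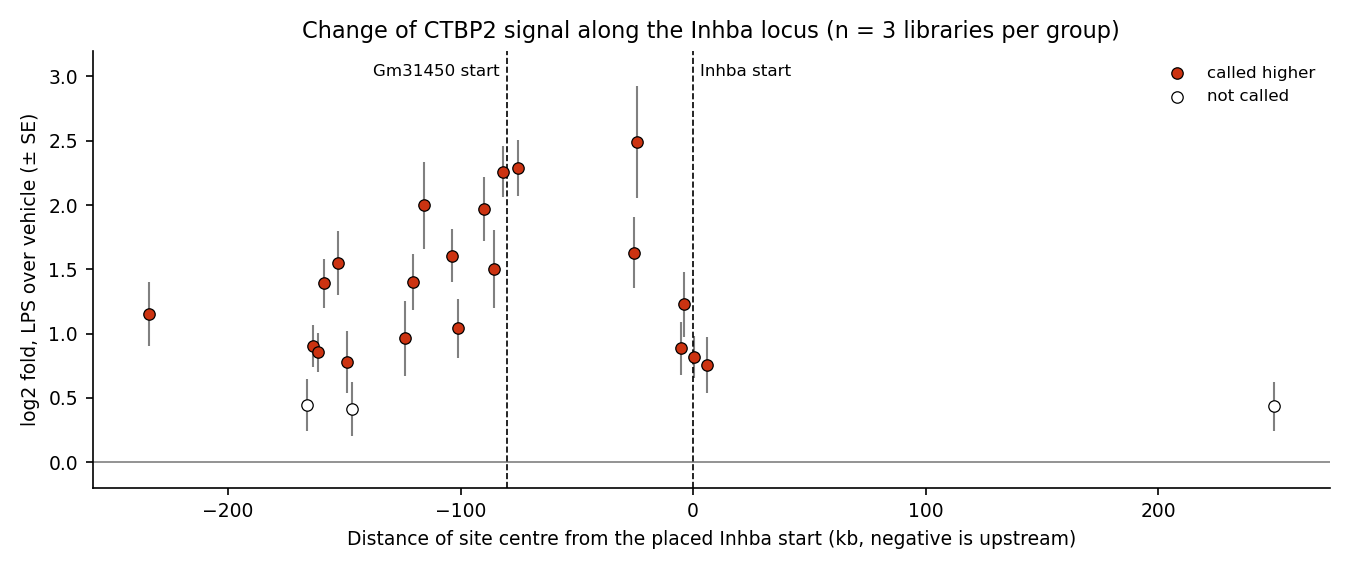
Log2 fold of LPS over vehicle with its standard error (vertical axis, n = 3 libraries per group) against the distance of each site from the placed Inhba start in kb (horizontal axis). Filled points were called higher and open points were not called. The folds of the 4 sites within 10 kb of the start lie between 0.76 and 1.23, and those of the 6 sites 24.2 to 89.9 kb upstream between 1.50 and 2.49.

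The order of sites differed between the groups. By vehicle mean the order was site 22 (74.5), site 4 (68.8), site 3 (54.7), site 24 (48.9), site 2 (34.0) and site 5 (33.6), and each overlapped its neighbour in this order or, for sites 4 and 3, met it at 65.0. By LPS mean it was site 16 (151), site 22 (130), site 4 (125), site 17 (115), site 3 (102) and site 5 (89.2). Of these neighbours, sites 16 and 22 did not overlap and neither did sites 4 and 17, while the others did. The lists of 6 shared 4 sites. None of the 6 sites with the highest vehicle means was among the 6 with the largest log2 fold. A weak vehicle signal enters the fold as its denominator, so this holds no independent information. Across the 24 sites the means of the groups had a Spearman rho of 0.55, against 0.75 over all 62236 sites; the points share their libraries.

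Over the whole locus all 24 sites had every LPS library above every vehicle library. Over all sites of the table this held for 21.6%. A limma fit over the whole table called 21 of the 24 higher and 0 lower at an adjusted p under 0.05, where 16.1% of all sites were called higher and 13.5% lower. The 3 sites not called were sites 2, 8 and 24. The median log2 fold was 1.19, against -0.02 over all sites, a value that the scaling holds close to no change. The LPS mean was over 2 times the vehicle mean at 14 of 24 sites, where 6.54% of all sites passed that fold, and over 4 times at 4 (sites 14, 16, 17 and 19), where 0.566% did. Since the locus was proposed from this contrast, nothing is read from these shares.

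How many sites were called depended on the scaling of the libraries. On the deposited values with no further scaling, in which vehicle replicate 3 has the highest median, 7 of 24 sites were called (sites 11, 12, 14 and 16 to 19) and 0 were called lower, where 1.89% of all sites were called higher and 0.0482% lower. There 17 of 24 did not overlap between groups, against 9.01% of all sites. Among all sites of the table, 54.4% of called sites were higher after median scaling and 97.5% on the deposited values. By the FDR under 0.05 in the authors' deposited table, 12 of the 24 were higher and 0 lower, against 4.01% and 0.37% of all sites. These were sites 1, 5, 6, 10 to 12 and 14 to 19, and the start site was not among them. No site reversed its direction under any scaling. Without LPS replicate 2 the limma calls of sites 7, 9 and 23 were lost.

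The share of reads, in which each library is scaled by its own total, is another scaling of the same values and not separate support. It gave the same direction. The 24 sites held 634, 839 and 457 reads across the vehicle libraries and 1451, 1795 and 1686 across those given LPS. As a share of the reads in all sites this was 0.0190% (exact 95% binomial interval 0.0176 to 0.0206), 0.0188% (0.0176 to 0.0201) and 0.0141% (0.0128 to 0.0154) in vehicle. In LPS it was 0.0397% (0.0377 to 0.0418), 0.0394% (0.0376 to 0.0413) and 0.0395% (0.0376 to 0.0414). The LPS shares were within counting error of each other, while vehicle replicate 3 lay below the other vehicle libraries. The mean share was 2.28 times higher in LPS, and 2.09 times without vehicle replicate 3, a check added after the data were seen. The intervals cover counting error only.

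**Figure D3:**
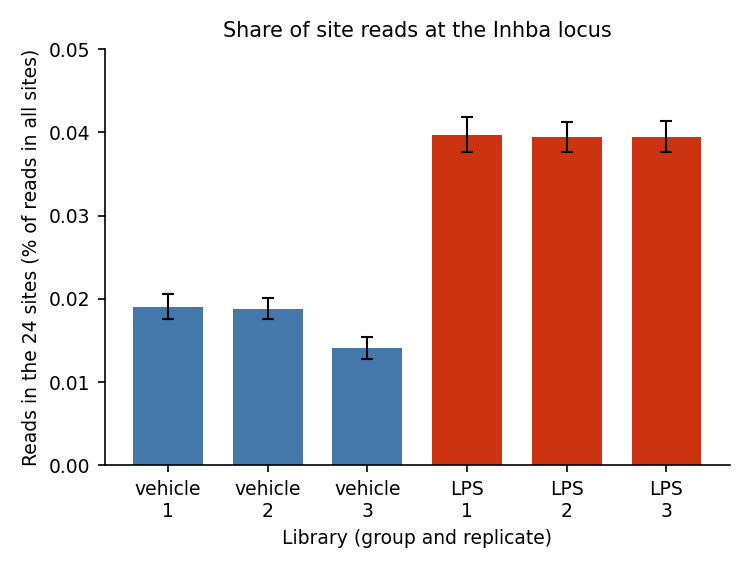
Share of each library's reads in sites that fell in the 24 Inhba locus sites, in percent (vertical axis), by library (horizontal axis), with exact 95% binomial intervals. The 3 LPS libraries lie between 0.0394% and 0.0397% and the 3 vehicle libraries between 0.0141% and 0.0190%.

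The libraries of a group did not vary alike. The median coefficient of variation of the 24 sites was 7.30% in LPS and 20.9% in vehicle, where all sites had 13.7% and 14.8%. Vehicle replicate 3 was the lowest vehicle library at 19 of the 24 sites after median scaling, with a sum over the 24 of 572 against 755 and 744. On the deposited values its sum was the highest of the vehicle libraries, 856 against 549 and 569. Its part in the size of the folds is seen by leaving it out: the median log2 fold was then 1.07 and 21 sites were still called.

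Most sites of the locus were weak before LPS and ordinary after it. In vehicle 20 of 24 lay below the median of all sites, and in LPS 11 of 24 did. The median over the 24 vehicle means was 23.1 and that over the LPS means 49.7. With 24 sites, the locus held more than the median of 14 in tiles of 0.5 Mb with a site, and 31.7% of tiles held as many or more. Sites just outside the window were few. The nearest on the upstream side, 16.1 kb beyond its edge, had means of 32.3 ± 4.29 in vehicle and 46.2 ± 10.6 in LPS (SD over n = 3 libraries) and a log2 fold of 0.48. The nearest on the other side, 185 kb beyond the edge, had 17.4 ± 8.22 and 36.9 ± 6.00 and a log2 fold of 1.12. Just inside, site 1 had 19.2 ± 3.66 and 43.7 ± 4.90 (SD over n = 3 libraries) and a log2 fold of 1.15, and site 24 is given above.

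**Figure D4:**
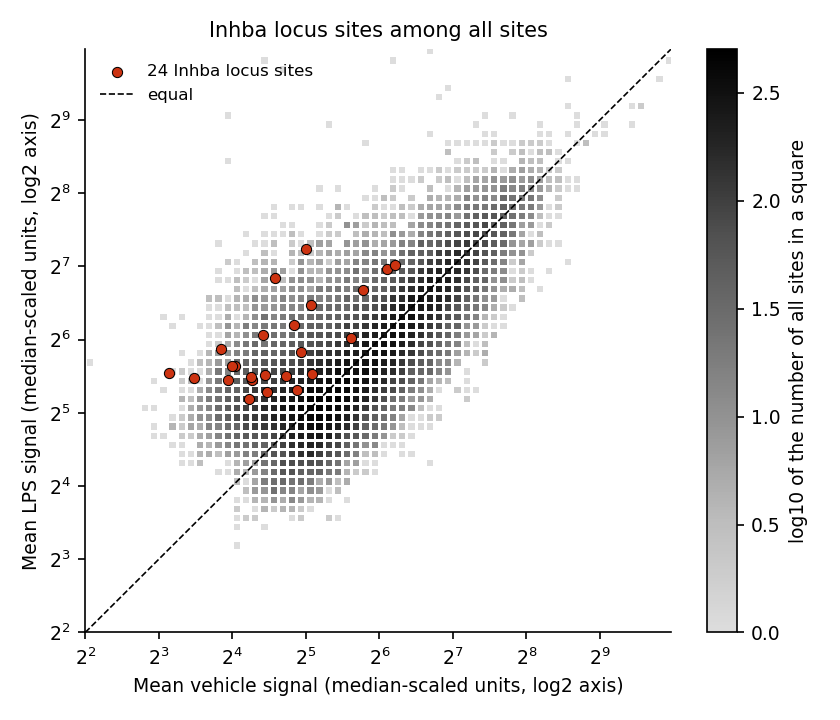
Mean signal in LPS (vertical axis) against mean signal in vehicle (horizontal axis), both in scaled units on log2 axes, with all sites as grey squares shaded by their number and the 24 Inhba locus sites as red points. All 24 points lie above the line of equal signal, and 20 of them lie below the all-site vehicle median of 48.3.

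The sites elsewhere with values most like those of site 16 were found by Euclidean distance over the 6 libraries on the log2 scale. The nearest, at a distance of 0.30, lay inside Zbtb46 at the measured offset (chromosome 2, 181125060 to 181126060) with means of 33.4 ± 8.74 in vehicle and 145 ± 4.86 in LPS (SD over n = 3 libraries). The next were inside Rab11fip1 (0.40), 1.67 kb from Ikzf1 (0.47), 36.2 kb from Lif (0.51) and 1.96 kb from Gpr132 (0.61). Their LPS means ran from 137 to 166 and their log2 folds from 2.12 to 2.46.

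The other genes of the activin pathway were looked up in a list of 31, of which 27 could be placed and 20 had a site within 10 kb of the start. For 4 of the placed genes, Fst and Pmepa1 among them, the strand was not at hand and either end of the gene was used. Of the 20 genes with a site, 6 had one called higher and 2 had one called lower by limma. Over 14330 protein-coding genes with a site, 21.3% had one called higher and 15.4% one called lower. On the deposited values the counts were 2 higher and 0 lower, where 1.89% of all sites were called higher and 0.0482% lower. The share of all genes was not computed for that setting.

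Of the 4 other ligand subunit genes, 2 had a site, and both had one called lower after median scaling, as did 15.4% of all genes with a site. Inhbe and Inhbc, which encode the βE and βC subunits known mainly from liver, are neighbours and share a site. That shared site (chromosome 10, 127196246 to 127197246) had 46.4, 35.5 and 37.5 in vehicle and 29.5, 17.7 and 21.6 in LPS, with a log2 fold of -0.79 (± 0.25 SE; adjusted p = 0.0149 by limma, lower in all 3 LPS libraries). The call was lost without vehicle replicate 1 (log2 fold -0.68) and without LPS replicate 2 (-0.63), and it did not pass on the deposited values (adjusted p = 0.752 by limma). The authors' deposited table gives it a log2 fold of -0.25 at an FDR of 0.427. A site 2.95 kb upstream of the Inhbe start had 139, 142 and 149 in vehicle and 74.9, 74.5 and 101 in LPS, a log2 fold of -0.79 (± 0.15 SE; adjusted p = 0.000151 by limma). It passed without each single library and not on the deposited values (adjusted p = 0.723 by limma), and the authors' deposited table gives it -0.21 at an FDR of 0.489. A further Inhbe site, 0.982 kb downstream of the start, had a log2 fold of -0.22 and was not called. Inhbb and Inha, which encode the βB and α subunits, had no site within 10 kb.

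Of the 3 genes of ligand-binding proteins, Fst and Fstl3 had a site, and each had one called higher after median scaling, as did 21.3% of all genes with a site. At Fst, which encodes follistatin, 1 of 3 sites was called (chromosome 13, 114593387 to 114594387), with 47.6, 32.8 and 36.3 in vehicle and 77.2, 72.7 and 62.9 in LPS. Its log2 fold was 0.86 (± 0.18 SE; adjusted p = 0.000526 by limma). At Fstl3, which encodes a related ligand-binding protein, the site 3.14 kb downstream of the start had 184, 161 and 208 in vehicle and 242, 255 and 245 in LPS. That log2 fold was 0.43 (± 0.13 SE; adjusted p = 0.0114 by limma), and the call was lost without vehicle replicate 2 (0.34) and without LPS replicate 2 (0.40). Neither passed on the deposited values (adjusted p = 0.476 and 0.904 by limma). The authors' deposited table gives log2 folds of 0.49 at an FDR of 0.183 for the Fst site and 0.08 at an FDR of 0.800 for the Fstl3 site.

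No receptor gene had a called site within 10 kb, where 21.3% of all genes with a site had a higher and 15.4% a lower one. The 4 of 5 with a site were Acvr1 and Acvr1b, which encode type I receptors, and Acvr2a and Acvr2b, which encode type II receptors. The site nearest to the Acvr2a start had 117, 114 and 143 in vehicle and 120, 129 and 106 in LPS, with a log2 fold of -0.07 (± 0.15 SE; adjusted p = 0.769 by limma). That of Acvr1b had a log2 fold of 0.01 (± 0.19 SE; adjusted p = 0.985 by limma). The groups overlapped at both. Within 50 kb, Acvr1b and Acvr2a had a site called higher, and Acvr1, Acvr1b and Acvr2b had one called lower. Of the signal transducers, only Smad3 had sites that could be placed. Neither of its 2 sites within 10 kb was called, while within 50 kb 2 were called higher and 2 lower. Of all genes with a site within 50 kb, 46.5% had a higher and 41.5% a lower one. Smad2 and Smad4 were not placed.

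Among inhibitors and cofactors 7 of 9 genes had a site within 10 kb, and 4 of these had one called higher and 0 one called lower. Of all genes with a site, 21.3% had one called higher and 15.4% one called lower. Smad7 was not placed. Skil, which encodes the SMAD co-repressor SnoN, had the largest log2 fold, 5.91 kb downstream of its start (chromosome 3, 31154602 to 31155602). The values there were 8.33, 15.1 and 15.0 in vehicle and 84.0, 89.6 and 114 in LPS, a log2 fold of 2.84 (± 0.23 SE; adjusted p = 2.61e-11 by limma). A site 9.87 kb upstream of the start of Smad6, which encodes an inhibitory SMAD, had 23.8, 23.9 and 22.5 in vehicle and 115, 116 and 132 in LPS. Its log2 fold was 2.32 (± 0.17 SE; adjusted p = 5.09e-12 by limma), while the site at the Smad6 start had 0.14 (adjusted p = 0.495 by limma). At the Skil start itself the values were 120, 114 and 236 in vehicle and 382, 251 and 199 in LPS, which overlap, and the log2 fold of 0.85 (SE 0.41) was not called (adjusted p = 0.20 by limma). A site 5.09 kb upstream of the Skil start was called at a log2 fold of 0.64 (adjusted p = 0.017 by limma), but not without LPS replicate 3 (0.49) or on the deposited values (adjusted p = 0.721 by limma). The sites 5.91 kb downstream of the Skil start and 9.87 kb upstream of the Smad6 start passed on the deposited values too.

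Pmepa1 encodes a membrane protein that binds receptor-activated SMADs, and Smurf1 encodes a ubiquitin ligase. At Pmepa1 1 of 2 sites was called higher and at Smurf1 1 of 3, with log2 folds smaller than the largest at Skil and Smad6. In scaled units the difference of means was 107 at the Pmepa1 site and 76.9 at the Smurf1 site, against 82.9 at the Skil and 97.6 at the Smad6 site. The Pmepa1 site had 63.1, 59.4 and 75.1 in vehicle and 146, 174 and 198 in LPS, a log2 fold of 1.37 (± 0.15 SE; adjusted p = 2.11e-08 by limma). The Smurf1 site, 2.11 kb downstream of the start, had 71.4, 87.8 and 90.1 in vehicle and 180, 158 and 142 in LPS, a log2 fold of 0.94 (± 0.15 SE; adjusted p = 1.07e-05 by limma). On the deposited values neither passed (adjusted p = 0.0829 and 0.401 by limma). The authors' deposited table gives log2 folds of 0.92 at an FDR of 0.0451 for this Pmepa1 site and 0.41 at an FDR of 0.244 for this Smurf1 site. The other Pmepa1 site had a log2 fold of 0.32 (adjusted p = 0.285 by limma). The other Smurf1 sites had 0.24 and 0.15 (adjusted p = 0.368 and 0.669 by limma). Furin, which encodes a protease that cleaves TGF-β family precursors, had a site near its start with a log2 fold of 0.31 (± 0.14 SE; adjusted p = 0.0856 by limma).

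**Figure D5:**
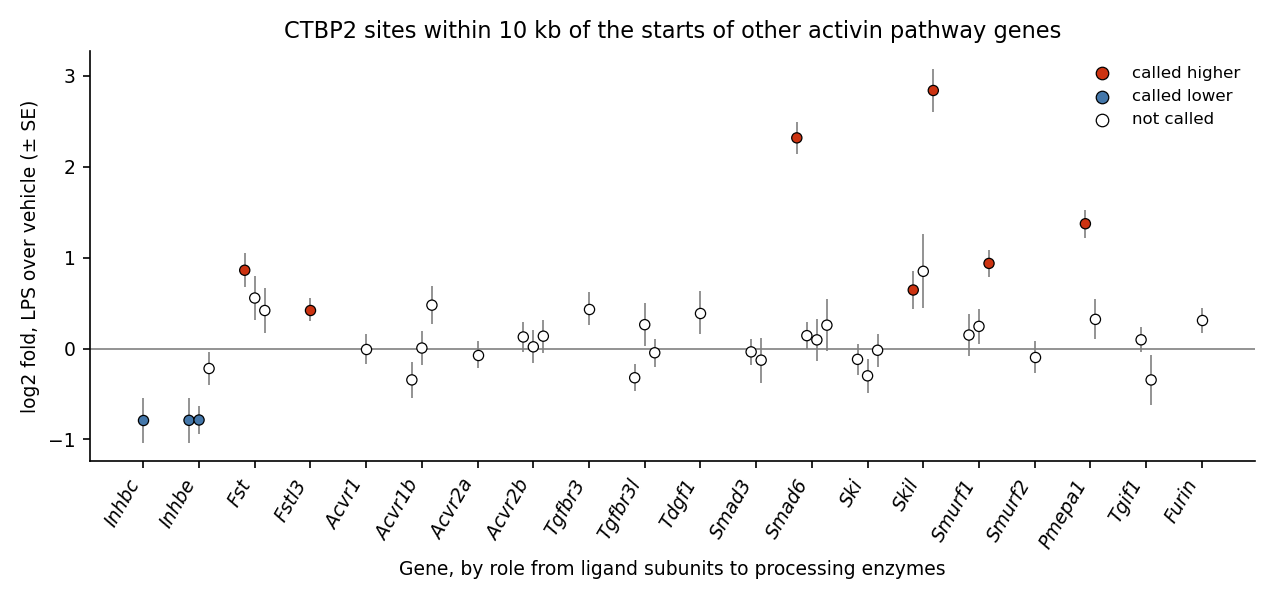
Log2 fold of LPS over vehicle with its standard error (vertical axis, n = 3 libraries per group) for the sites within 10 kb of the starts (of either end for Fst, Tgfbr3 and Pmepa1) of the activin pathway genes other than Inhba (horizontal axis). Red points were called higher, blue points lower and open points not called. The highest points are those of Skil (2.84) and Smad6 (2.32), and the lowest are those of Inhbc and Inhbe (-0.79).

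The cell type could not be checked by expression, since only CTBP2 occupancy was measured. CTBP2 sites lay within 10 kb of the start of 7 of 7 placed macrophage genes, among them Spi1 and Adgre1. They also lay near 4 of 5 neutrophil, 3 of 3 erythroid, 3 of 4 T cell, 3 of 4 B cell and 2 of 3 stromal genes, so the presence of a site did not separate cell types.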

How the data were processed

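The deposited table holds 6 signal columns, a normalised signal per site and library made by the authors, with their log2 concentrations, log2 fold, p-value and FDR. The signal values were whole multiples of 1 step per library; no source used here gives what set the step. The submitters' processing notes name BWA 0.7.17, MACS3 3.0.0a5, DiffBind 3.16, R 4.4.1, SAMtools 1.9 and Picard 3.2.0, with no order, and the builds mm39, GRCm39 and mm10 without a role. Site positions were read as GRCm39.

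Here, each column was divided by its median, and limma 3.58.1, run under R 4.3.3 with its trend and robust settings, was fitted to log2(scaled signal + 1) over all 62236 sites, 3 against 3 libraries without covariates, with Benjamini-Hochberg adjustment and a threshold of 0.05. The added 1 makes log2 folds smaller at low sites. At site 19 the log2 fold was 2.49 with 1 added, 2.67 with 0.1 added and 1.98 with 5 added. The fit was tested on simulated data. A path of shifts along each chromosome was fitted to the starts of 17491 protein-coding RefSeq genes of GRCm38.p6, and gene starts were placed with it. Its settings were steps of 250 bp up to 1 Mb, tolerance 500 bp, penalty 12, assumed share 0.35 and at least 5 hits per stretch. Of 8740 held-out starts, 42.1% then had a site within 500 bp, against 5.07% with no shift. No converted coordinate is printed.

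The window sites named by rule were the one nearest the start and the 6 highest by LPS mean, vehicle mean and log2 fold; none had a negative fold. The members and lists were chosen with earlier results of these data known. Replicate numbers were not taken as pairs. Alternatives were other scalings, pseudocounts, a filter, a block, left-out libraries, other thresholds and the authors' calls. Genes of chromosome 18 were not placed.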

Additional observations from a re-analysis of the deposited data

How the results depend on the processing

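The direction of all 24 sites of the Inhba locus held under every scaling tried and under the authors' deposited log2 folds. Pseudocounts, the filter, the block and left-out libraries could not reverse it, since every scaled LPS library lay above every vehicle library at each site. The locus was also chosen by these values, so the direction is a description only. Of 24 sites, 21 were called higher with pseudocounts of 0.1 and 5, with quantile normalisation and with a filter at a mean of 20. There were 19 at an adjusted p under 0.01 and 18 to 22 without single libraries, and 0 were lower in each of these settings. Over the whole table, 10005 and 10113 sites were called higher with those pseudocounts, 9227 with quantile normalisation and 9999 with the filter. The deposited values gave 7 higher in the locus, 1178 higher and 30 lower over all sites, and 2 higher and 0 lower among pathway genes; the cause was not tested. The authors' deposited calls gave 12 in the locus with a median log2 fold of 0.82, 2497 and 230 over all sites, and 3 and 0 among pathway genes. Shares of all genes were not computed for either of these settings. At an adjusted p under 0.01 there were 6923 higher and 4699 lower sites, and 1 pathway gene with a lower site. Without single libraries the median log2 fold of the locus ran from 1.07 to 1.24, the ratio of read shares from 2.09 to 2.40, the sites called higher over the table from 7691 to 10081 and lower from 6031 to 7912, and the pathway genes with a higher site from 5 to 7 and with a lower site from 1 to 2. A window of 0.2 Mb held 9 sites, all 9 called higher, and one of 1 Mb held 28, with 24 called higher. The same fit called 16.1% of all sites higher. Both windows share sites with the 24, so their counts are not separate results. Within 50 kb of the start 11 of 22 pathway genes with a site had a higher and 10 a lower one, where 46.5% and 41.5% of all genes did. By the table's own gene names it was 8 and 8 of 12, where 45.0% and 42.8% did. Those names follow another build than the positions.

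With the replicate block, 22 sites of the locus were called higher, site 24 being added, with 11691 higher and 10397 lower over all sites and 8 and 2 pathway genes. Deviations from the group means correlated at 0.11, 0.04 and 0.21 between same-numbered libraries. Between differently numbered libraries they ran from -0.21 to 0.15, so the highest value was that of replicate 3 with replicate 3. Whether the numbers mark pairs is not stated by the labels and was not settled by these values. The main fit took no pairs. The planned edgeR and DESeq2 tests on reads were not run, because a check that takes the smallest value of a column as 1 read did not accept the columns as recovered reads. Depth limits the weakest sites, where vehicle values rest on as few as 2 reads.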
